A study of Homo sapiens with 8 samples.

Results

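The genes described here were the AP-1 subunits FOS, FOSB, FOSL1, FOSL2, JUN, JUNB and JUND and the early growth response factors EGR1 and EGR2, 9 genes in all. They were read from the probe sets of the array to which the platform annotation gives exactly 1 gene symbol, equal to 1 of the 9. This gave 14 probe sets of 8 genes, out of 8226 genes measured in the same way: 3 probe sets each for FOS and JUND, 2 each for JUN and JUNB, and 1 each for FOSB, FOSL1, FOSL2 and EGR1. EGR2 had no probe set under this rule in the annotation used and was not analysed here. The study profiled the response of prostate cancer cells to acute Notch1 activation on Affymetrix U95Av2 arrays. It compared 4 groups of 2 arrays: LNCaP cells overexpressing activated Notch1, LNCaP cells with the GFP control, PC3 cells overexpressing activated Notch1, and PC3 cells with the GFP control. LNCaP is an established androgen-responsive line from a lymph node metastasis, and PC3 an established androgen-independent line from a bone metastasis. How the profiled cells received Notch1 or GFP, for how long, and whether they were a pool or a clone is not given in the sources used here, and the methods state that each sample was run on 2 chips, so the p-values below measure the spread between arrays, which may be technical.

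AP-1 is a dimer of basic leucine zipper (bZIP) proteins, either 2 JUN family members or a JUN with a FOS family member, and it binds short palindromic sites in promoters and enhancers. FOS, JUN and EGR1 are immediate early genes, which growth factors, stress and serum switch on within minutes through MAP kinases and the serum response factor SRF, without new protein synthesis. FOSL1, FOSL2 and JUND persist between stimuli in many cell types, JUNB and JUND can restrain growth, and in prostate cells c-Jun is also known as a partner of the androgen receptor. Activated Notch1 works through another DNA-binding protein, CSL, at the promoters of genes such as HES1.

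The promoters of JUN and JUND are shown because both JUN probe sets and some JUND probe sets were lower with Notch1 in LNCaP cells, and that of EGR1 because it carries the SRF sites of an immediate early gene. Each line gives the 210 bases before the RefSeq start site, 5′ to 3′ on the strand of the gene (GRCh38.p14), with matches to the motifs searched in capitals. The coordinates are chr1:58784048-58784257 on the minus strand for JUN, chr19:18281623-18281832 on the minus strand for JUND, and chr5:138465269-138465478 on the plus strand for EGR1.
JUN: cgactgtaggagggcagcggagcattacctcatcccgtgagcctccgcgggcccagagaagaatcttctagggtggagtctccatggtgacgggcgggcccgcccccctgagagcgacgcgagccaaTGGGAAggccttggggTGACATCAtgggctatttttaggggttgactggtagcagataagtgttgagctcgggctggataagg
JUND: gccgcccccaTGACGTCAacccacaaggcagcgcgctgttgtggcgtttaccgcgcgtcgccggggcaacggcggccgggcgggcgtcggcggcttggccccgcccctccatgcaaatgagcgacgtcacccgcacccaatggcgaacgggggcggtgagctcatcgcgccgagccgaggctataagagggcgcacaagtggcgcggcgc
EGR1: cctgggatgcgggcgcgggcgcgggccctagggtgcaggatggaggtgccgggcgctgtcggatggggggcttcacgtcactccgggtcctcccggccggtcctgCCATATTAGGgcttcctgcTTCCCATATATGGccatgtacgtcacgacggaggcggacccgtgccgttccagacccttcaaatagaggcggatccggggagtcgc
The motifs, searched on both strands from 250 bases before to 50 bases after each start, were the AP-1 site TGACTCA, the JUN-type AP-1 site TGACATCA, the cyclic AMP response element TGACGTCA, the CSL core TGGGAA and the CArG box bound by SRF. JUN had TGACATCA at position -67, a match found in 2.61% of all 35116 windows, and the CSL core at -83, found in 24.0% of windows. JUND had TGACGTCA at -200, which 1.85% of windows hold. EGR1 had CArG boxes, found in 1.29% of windows, at -105 and -83, and the second of them overlapped a CSL core on the other strand. In FOSL2 the AP-1 site TGACTCA, found in 4.95% of windows, lay 5 bases after the start, outside the stretch printed for other genes. EGR2, which has 3 windows, had a CArG box at -71 in 1 of them. The windows of FOS, FOSB and JUNB held none of the 5 motifs, but sites further from the start were not searched, so these genes may hold them elsewhere. The matches given are descriptions of sequence and not evidence of binding. FOSL1 had no entry.

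All values are log2 expression levels per probe set, a unit in which a difference of 1 is a doubling, and a level is set only against the same probe set on other arrays. A probe set was called when its adjusted p in limma, over 12558 probe sets, was under 0.05. HES1, a direct Notch target used as a check of the pathway, had levels of 11.22 and 11.23 in LNCaP Notch1 arrays, against 8.41 and 8.47 in LNCaP GFP arrays, and 10.51 and 10.61 in PC3 Notch1 arrays, against 7.92 and 8.08 in PC3 GFP arrays. Array medians were 6.28 to 6.36 in LNCaP and 5.95 to 6.01 in PC3 cells. The 7 measured LNCaP identity genes averaged 9.53 in LNCaP GFP and 7.38 in PC3 GFP cells, and the 10 PC3 identity genes 4.96 in LNCaP GFP and 9.03 in PC3 GFP cells. Each list mean was thus higher in its own line, but not every member was. Of the 7, 5 were called higher in LNCaP GFP than in PC3 GFP cells and 1 lower, KRT18 (9.57 against 10.99). Of the 10, 0 were called higher and 8 lower. Over all probe sets 40.3% were called higher and 18.5% lower. Of 5 leukocyte markers, 0 were called in either line by limma (0 in LNCaP and 1 in PC3 at an unadjusted p under 0.05), and their mean level was 6.16, 6.06, 6.07 and 6.20 in LNCaP Notch1, LNCaP GFP, PC3 Notch1 and PC3 GFP cells. Only LYZ was under log2 5 in every group, while the group means of PTPRC (6.14 to 6.65), CD14 (7.21 to 7.75), CD3E (6.63 to 7.13) and CD68 (6.93 to 8.02) lay above it. What these levels measure in the lines was not tested. Of 5 stromal markers 1 was called, ACTA2, which was higher in LNCaP Notch1 (9.45) than in LNCaP GFP cells (8.17), with list means of 6.47, 6.13, 5.31 and 5.54 in the same order of groups.

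In LNCaP cells activated Notch1 went with a higher level of FOSL2 and lower levels on both weak JUN probe sets and some JUND probe sets, while FOS, FOSB, FOSL1, JUNB and EGR1 did not pass the test. Of the 14 probe sets 1 was called higher, beside 8.01% of all probe sets tested, and 4 were called lower, beside 9.32% of all probe sets. The median difference over the 14 was -0.04, beside 0.04 over all probe sets. FOSL2, also known as FRA2, encodes a FOS family partner of the JUN proteins. Its levels were 8.92 and 8.84 in LNCaP Notch1 arrays, against 8.46 and 8.09 in LNCaP GFP arrays. Both Notch1 arrays lay above both GFP arrays, and the GFP arrays were the lowest of all 8 for this gene. The difference was 0.61 on the log2 scale (SE 0.14, 95% interval 0.30 to 0.91), or 1.52-fold, with an adjusted p of 0.0112. Leaving out 1 array left a difference of 0.43 to 0.79 in every fit but ended the call in 3 of them: the adjusted p of FOSL2 was 0.0780 without LNCaP Notch1 replicate 1, 0.0503 without LNCaP Notch1 replicate 2, 0.120 without LNCaP GFP replicate 2, and 0.0612 with low values of all probe sets raised to log2 5.

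JUN encodes c-Jun, the founding AP-1 subunit, whose protein is known to act on its own promoter through AP-1-like sites. Probe set 32583_at had levels of 3.50 and 3.30 in LNCaP Notch1 arrays, against 4.44 and 4.64 in LNCaP GFP arrays. Probe set 1895_at had 3.47 and 3.71 in LNCaP Notch1 arrays, against 4.39 and 4.33 in LNCaP GFP arrays. On both probe sets the LNCaP GFP arrays stood above all 6 other arrays. JUN fell by 1.14 on the log2 scale on 32583_at (SE 0.13, 95% interval -1.42 to -0.86, 2.20-fold lower, adjusted p = 0.000138). On 1895_at it fell by 0.77 (SE 0.15, 95% interval -1.10 to -0.43, 1.70-fold lower, adjusted p = 0.00546), and without LNCaP Notch1 replicate 1 the adjusted p of this probe set was 0.0607. Both probe sets were built on the same GenBank record, so they are not independent measures of JUN. All 16 JUN values were under log2 5, a range that held 31.9% to 37.6% of the probe sets of an array, and raising low values to log2 5 removed the difference on both.

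JUND encodes the JUN family member that is expressed in most cells without a stimulus and that counters the growth-promoting activity of c-Jun in mouse fibroblasts. Probe set 1612_s_at had levels of 11.11 and 11.06 in LNCaP Notch1 arrays, against 11.51 and 11.71 in LNCaP GFP arrays. On 41483_s_at the levels were 11.10 and 11.04 in LNCaP Notch1 arrays, against 11.45 and 11.62 in LNCaP GFP arrays. On both, the Notch1 arrays of LNCaP were the lowest of the 8. JUND fell by 0.53 on 1612_s_at (SE 0.12, 95% interval -0.80 to -0.26, 1.44-fold lower, adjusted p = 0.0130) and by 0.47 on 41483_s_at (SE 0.13, 95% interval -0.75 to -0.19, 1.38-fold lower, adjusted p = 0.0283). The third JUND probe set, 41484_r_at, differed: it had 9.43 and 9.49 in LNCaP Notch1 arrays, against 9.33 and 9.37 in LNCaP GFP arrays, a difference of 0.11 (95% interval -0.15 to 0.37, adjusted p = 0.628). All 3 were built on 1 GenBank record, and which of them follows JUND mRNA was not tested. With 1 array left out the JUND differences were -0.63 to -0.42 on 1612_s_at and -0.55 to -0.38 on 41483_s_at, while the calls were lost in several of these fits, with an adjusted p for 1612_s_at of 0.0573 and 0.0788 without LNCaP Notch1 replicate 1 or 2 and 0.128 without LNCaP GFP replicate 2, and for 41483_s_at of 0.0506 to 0.200 with any 1 of the 4 LNCaP arrays left out and 0.0694 with low values raised to log2 5.

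The remaining AP-1 and EGR probe sets gave no call in LNCaP cells. FOS, the partner that most sharply follows a stimulus, had levels on 2094_s_at of 7.90 and 7.90 in LNCaP Notch1 arrays, against 7.88 and 7.86 in LNCaP GFP arrays, a difference of 0.03 (95% interval -0.23 to 0.29, adjusted p = 0.922). Its other probe sets had weak signals, with 4.89 and 5.31 in Notch1 arrays against 5.13 and 5.23 in GFP arrays on 1915_s_at, and 1.67 and 2.44 against 2.45 and 2.69 on 1916_s_at. Neither passed the test (adjusted p of 0.843 and 0.169), although FOS on 1916_s_at did so without LNCaP Notch1 replicate 2 (log2 difference -0.90, adjusted p = 0.0240). FOSB, a FOS relative induced by the same stimuli, had 7.95 and 8.16 in LNCaP Notch1 arrays, against 7.96 and 8.00 in LNCaP GFP arrays. FOSL1, or FRA1, had 7.31 and 7.13 in LNCaP Notch1 arrays, against 7.32 and 7.08 in LNCaP GFP arrays. In both genes the groups overlapped, and the differences were 0.08 (95% interval -0.19 to 0.34) and 0.02 (95% interval -0.27 to 0.31). JUNB, a weaker activator than c-Jun that can oppose it, had 7.23 and 7.06 in LNCaP Notch1 arrays, against 7.34 and 7.46 in LNCaP GFP arrays, on 32786_at, a difference of -0.26 (95% interval -0.55 to 0.03, adjusted p = 0.229). Its second probe set, 2049_s_at, gave overlapping levels of 5.50 and 5.45 in Notch1 arrays against 5.57 and 5.40 in GFP arrays. EGR1, a zinc finger factor that binds GC-rich promoters, had 7.53 and 7.71 in LNCaP Notch1 arrays, against 7.51 and 7.52 in LNCaP GFP arrays, a difference of 0.11 (95% interval -0.31 to 0.52, adjusted p = 0.790).

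**Figure D1:**
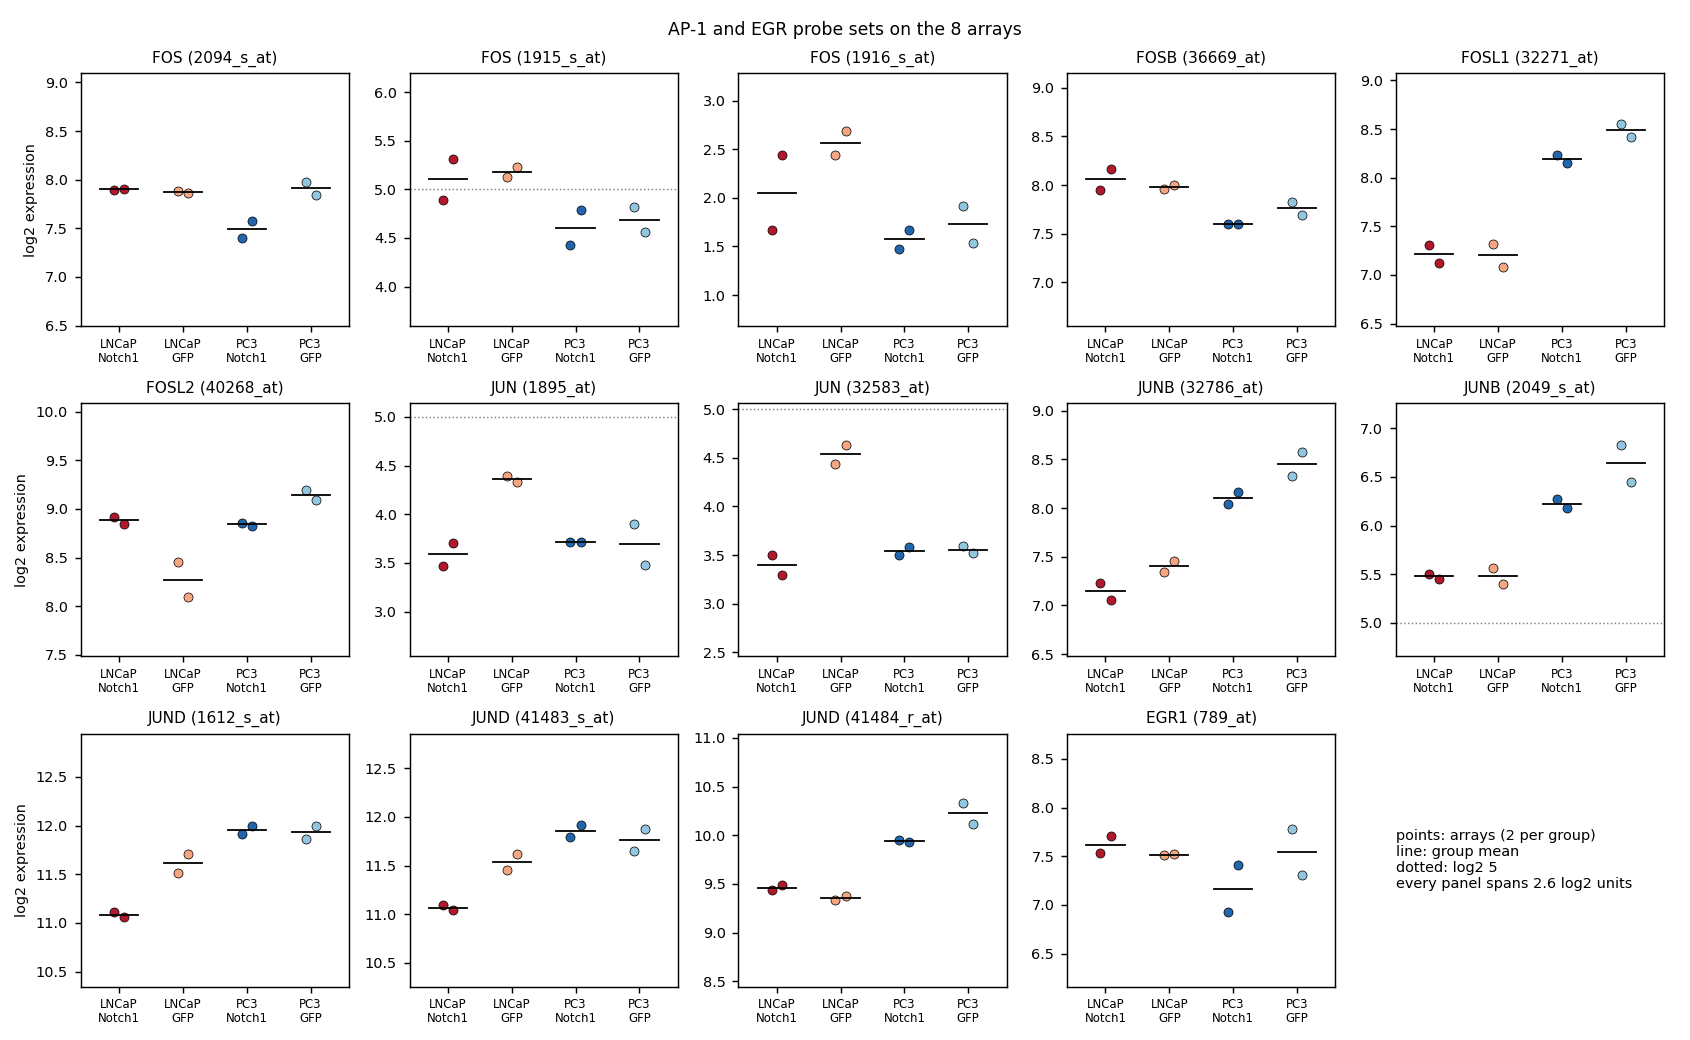
Log2 expression of the 14 probe sets of FOS, FOSB, FOSL1, FOSL2, JUN, JUNB, JUND and EGR1 (y axis) in the 4 groups (x axis), with 1 point per array, a line at each group mean, and panels of equal height in log2 units. The LNCaP GFP arrays stand apart from the other 6 for FOSL2, where they are lowest at 8.46 and 8.09, and for JUN, where they are highest, at 4.44 and 4.64 on 32583_at.

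Other measures moved with the LNCaP groups. The 7 LNCaP identity genes averaged 8.70 in LNCaP Notch1 and 9.53 in LNCaP GFP cells, and 5 of the 7 were called lower, beside 10.2% of all genes. In PC3 cells 0 of 7 were called lower by limma, beside 2.21% of all genes, and 2 of the 7 had an unadjusted p under 0.05. The difference between the 3′ and 5′ control probe sets, which grows as RNA is degraded, was 0.45 ± 0.10 for ACTB in LNCaP Notch1 arrays and 0.62 ± 0.06 in LNCaP GFP arrays, and 0.38 ± 0.03 and 0.56 ± 0.01 for GAPDH (SD, n = 2 each). In PC3 it was 0.33 ± 0.08 in Notch1 and 0.38 ± 0.07 in GFP arrays for ACTB, and -0.06 ± 0.03 and 0.02 ± 0.07 for GAPDH. Of the 10 PC3 identity genes 4 were called higher with Notch1 in PC3 cells, beside 4.36% of all genes, and 1 in LNCaP cells, beside 8.47%. The part of these differences in the FOSL2, JUN and JUND values was not tested.

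In PC3 cells no AP-1 or EGR probe set passed the test, and most of their differences lay below 0, as did most over all probe sets. FOS, JUN, JUNB and JUND each have several of these probe sets, so they are not separate counts of genes. By limma 0 of the 14 were called higher and 0 lower, beside 4.19% and 2.01% of all probe sets, and 11 of 14 differences were below 0, beside 61.7% of all probe sets. At an unadjusted p under 0.05, 5 of 14 were lower and 0 higher, and 13.9% of all probe sets were lower at that level. The median difference over the 14 was -0.22, beside -0.08 over all probe sets. These 5 were FOS (2094_s_at), both JUNB probe sets, JUND (41484_r_at) and FOSL1. FOS on 2094_s_at had levels of 7.41 and 7.58 in PC3 Notch1 arrays, against 7.98 and 7.85 in PC3 GFP arrays. The PC3 Notch1 arrays were the lowest of the 8, with a difference of -0.42 (SE 0.12, 95% interval -0.68 to -0.16, adjusted p = 0.0621). JUNB had 8.04 and 8.17 in PC3 Notch1 arrays, against 8.33 and 8.58 in PC3 GFP arrays, on 32786_at. On 2049_s_at JUNB had 6.27 and 6.18 in PC3 Notch1 arrays, against 6.83 and 6.45 in PC3 GFP arrays. The groups did not overlap on either, and the differences were -0.35 (95% interval -0.64 to -0.06, adjusted p = 0.136) and -0.42 (95% interval -0.73 to -0.10, adjusted p = 0.113). Without PC3 GFP replicate 2 the adjusted p was 0.0462 for FOS on 2094_s_at and 0.0218 for JUNB on 2049_s_at, and FOS on this probe set was also called with the 25th percentile filter (0.0473) and with trend and robust eBayes (0.0452).

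FOSL1 had levels of 8.23 and 8.15 in PC3 Notch1 arrays, against 8.55 and 8.42 in PC3 GFP arrays, and FOSL2 had 8.86 and 8.83 in PC3 Notch1 arrays, against 9.19 and 9.09 in PC3 GFP arrays. Neither pair of groups overlapped, and the differences were -0.29 (95% interval -0.58 to 0.00, adjusted p = 0.197) for FOSL1 and -0.30 (95% interval -0.60 to 0.00, adjusted p = 0.205) for FOSL2. JUN had 3.50 and 3.58 in PC3 Notch1 arrays, against 3.60 and 3.52 in PC3 GFP arrays, on 32583_at, and 3.72 and 3.71 against 3.90 and 3.48 on 1895_at. The groups overlapped on both, with differences of -0.02 (95% interval -0.29 to 0.26) and 0.02 (95% interval -0.31 to 0.36). For JUND the levels were 11.92 and 12.0 in PC3 Notch1 arrays, against 11.86 and 12.0 in PC3 GFP arrays, on 1612_s_at, and 11.79 and 11.92 against 11.65 and 11.88 on 41483_s_at. On 41484_r_at JUND had 9.95 and 9.93 in PC3 Notch1 arrays, against 10.33 and 10.12 in PC3 GFP arrays, a difference of -0.29 (95% interval -0.55 to -0.02, adjusted p = 0.169). FOSB had 7.60 and 7.60 in PC3 Notch1 arrays, against 7.82 and 7.70 in PC3 GFP arrays (difference -0.16, adjusted p = 0.416). The weak FOS probe sets had 4.42 and 4.79 in PC3 Notch1 arrays, against 4.82 and 4.56 in PC3 GFP arrays, on 1915_s_at, and 1.48 and 1.67 against 1.92 and 1.54 on 1916_s_at. EGR1 showed the widest spread of any member within the PC3 groups (SD 0.35 in Notch1 and 0.33 in GFP arrays), with 6.92 and 7.41 in PC3 Notch1 arrays, against 7.78 and 7.30 in PC3 GFP arrays. Its difference was -0.37 (95% interval -0.79 to 0.04, adjusted p = 0.240), and the groups overlapped.

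**Figure D2:**
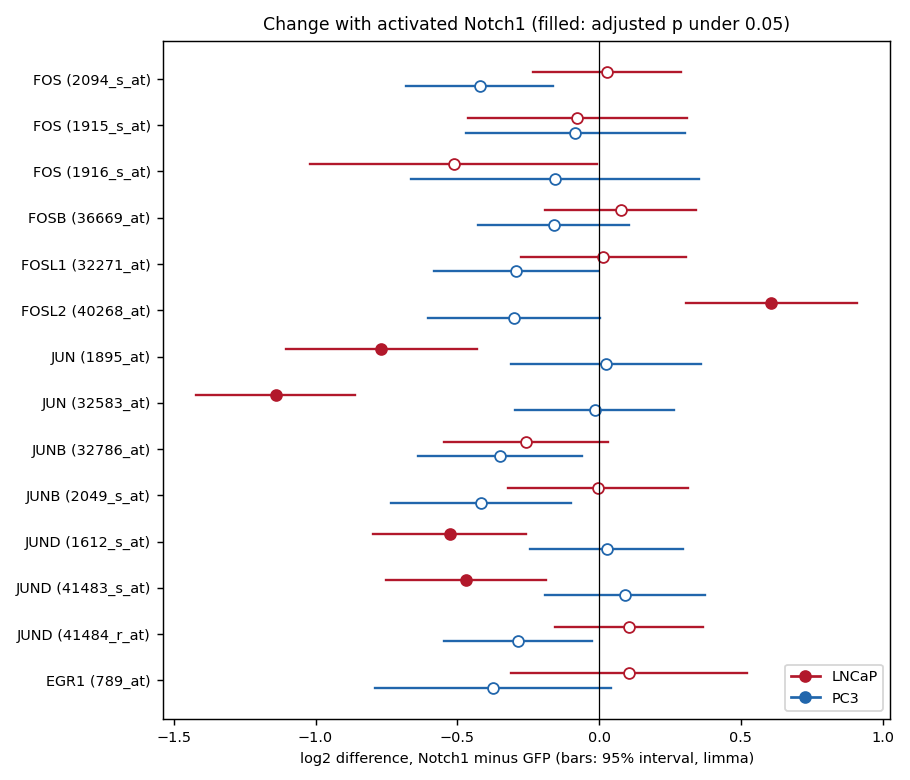
Log2 difference between Notch1 and GFP cells (x axis) for each AP-1 and EGR probe set (y axis), in LNCaP (red) and PC3 (blue). Points are limma estimates, bars their 95% intervals, and filled points have an adjusted p under 0.05: FOSL2 at 0.61, JUN at -0.77 and -1.14, and JUND at -0.53 and -0.47, all in LNCaP.

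Whether the Notch1 effect differed between the lines was tested as an interaction, the effect in LNCaP minus the effect in PC3. Of the 14 probe sets 1 was called higher, beside 6.49% of all probe sets, and 2 lower, beside 7.67%, a split of 1 and 4 after centring each array on its median (4.37% and 9.99% of all probe sets) and of 2 and 2 after quantile normalization (5.45% and 7.96%). FOSL2 had an interaction of 0.91 (SE 0.19, 95% interval 0.48 to 1.34, adjusted p = 0.0116). JUN had -1.12 on 32583_at (SE 0.18, 95% interval -1.52 to -0.73, adjusted p = 0.00248) and -0.79 on 1895_at (SE 0.21, 95% interval -1.27 to -0.32, adjusted p = 0.0345). JUND was not called to differ between the lines, with interactions of -0.55 (adjusted p = 0.0577) and -0.56 (adjusted p = 0.0639) on the probe sets that fell in LNCaP and 0.39 (adjusted p = 0.137) on 41484_r_at. On 1612_s_at and 41483_s_at it was called under median centring (adjusted p of 0.0297 and 0.0347), with trend and robust eBayes (0.0168 and 0.0225) and without PC3 GFP replicate 2 (0.0415 and 0.0298), and on 1612_s_at also with the 25th percentile filter (0.0445). For FOS on 2094_s_at the interaction was 0.45 (95% interval 0.08 to 0.82, adjusted p = 0.0961) and for EGR1 0.48 (95% interval -0.11 to 1.07, adjusted p = 0.238). The FOSL2 interaction lost its call without LNCaP Notch1 replicate 1 (adjusted p = 0.0510) or PC3 Notch1 replicate 2 (0.0513). That of JUN on 1895_at lost it with any array left out but PC3 GFP replicate 1 (adjusted p of 0.0521 to 0.116), at values of -1.0 to -0.58 over the 8 fits, while that on 32583_at kept its call in all of them.

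In GFP cells the lines differed in the levels of several AP-1 subunits. LNCaP cells had less FOSL1, FOSL2 and JUNB than PC3 cells and higher levels on both weak JUN probe sets. FOS on 2094_s_at, FOSB and EGR1 did not pass the test. Of the 14 probe sets 4 were called higher in LNCaP GFP than in PC3 GFP cells, beside 40.3% of all probe sets, and 6 lower, beside 18.5%. After median centring the split was 2 higher and 8 lower, beside 26.5% and 30.7% of all probe sets, and after quantile normalization 1 and 5, beside 27.6% and 28.7%. The median difference was -0.13, beside 0.22 over all probe sets. FOSL1 had levels of 7.32 and 7.08 in LNCaP GFP arrays, against 8.55 and 8.42 in PC3 GFP arrays, and was 2.44-fold lower (log2 difference -1.28, SE 0.13, adjusted p = 8.76e-06). JUNB was 2.08-fold and 2.23-fold lower on its probe sets (log2 differences -1.05, adjusted p = 3.91e-05, and -1.16, adjusted p = 3.96e-05), and FOSL2 1.82-fold lower (log2 difference -0.87, adjusted p = 0.000252). For these genes no LNCaP GFP array reached the level of a PC3 GFP array. JUND was lower on 41484_r_at by 1.83-fold (adjusted p = 7.80e-05) and on 1612_s_at by 1.25-fold (adjusted p = 0.0436), and not called on 41483_s_at (log2 difference -0.23, adjusted p = 0.152). JUN was higher in LNCaP GFP cells by 0.67 on 1895_at (adjusted p = 0.00306) and by 0.98 on 32583_at (adjusted p = 5.38e-05). All JUN values were under log2 5, and raising low values to log2 5 removed both differences. The weak FOS probe sets 1915_s_at and 1916_s_at were higher by 0.49 (adjusted p = 0.0316) and 0.84 (adjusted p = 0.00876), while the bright one, 2094_s_at, differed by -0.04 (95% interval -0.30 to 0.22), and by -0.32 (adjusted p = 0.0319) after median centring. EGR1 differed by -0.03 (95% interval -0.44 to 0.39).

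No source states whether the lines were normalized together, and centring each array on its median changed the median difference over all probe sets to -0.06 from 0.22. The 6 lower calls, of FOSL1, FOSL2, both JUNB and both JUND probe sets, held under this scaling, and JUND on 41483_s_at was called lower as well (log2 difference -0.51, adjusted p = 0.00592), although that of JUND on 1612_s_at did not under quantile normalization (adjusted p = 0.169). The higher calls of FOS on 1915_s_at and 1916_s_at did not hold under centring (adjusted p of 0.324 and 0.0615), nor did that of JUN on 1895_at under quantile normalization (0.0943). Leaving out single arrays ended the call of FOS on 1915_s_at (adjusted p = 0.0579 and 0.111 without LNCaP GFP replicate 1 or 2, and 0.157 without PC3 GFP replicate 2), that of FOS on 1916_s_at (0.0551 without PC3 GFP replicate 2) and the call of JUND on 1612_s_at, with log2 differences of -0.42 to -0.22 and an adjusted p of up to 0.283.

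**Figure D3:**
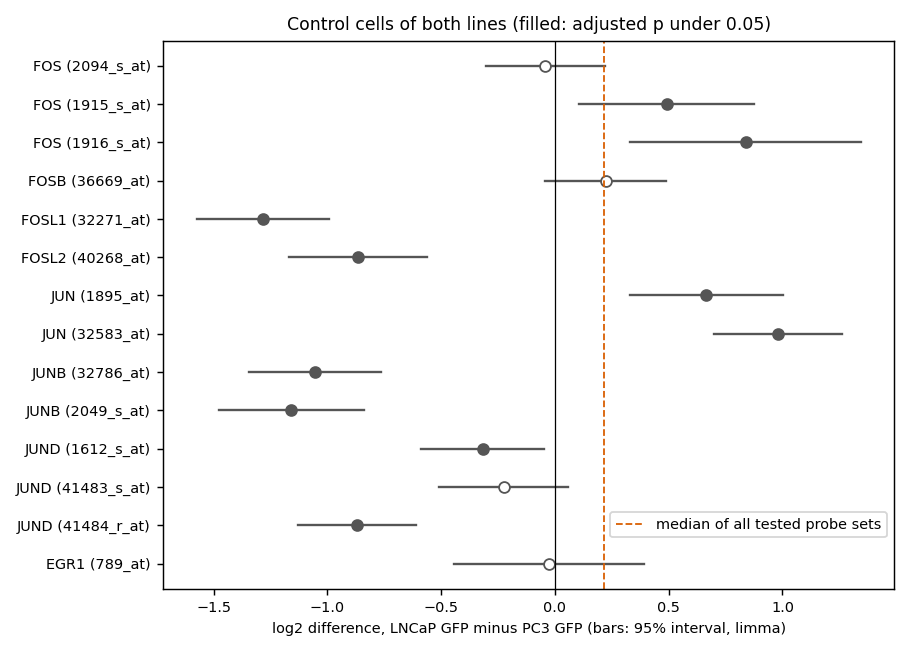
Log2 difference between LNCaP GFP and PC3 GFP cells (x axis) for each AP-1 and EGR probe set (y axis), as limma estimates with 95% intervals, filled where the adjusted p is under 0.05. FOSL1, FOSL2 and JUNB lie left of 0, at -1.28, -0.87, -1.05 and -1.16, and the dashed line marks the median of all tested probe sets at 0.22.

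The levels across the 4 groups can be ordered for the genes with a call. FOSL2 was highest in PC3 GFP cells (9.14 ± 0.07), followed by LNCaP Notch1 (8.88 ± 0.05) and PC3 Notch1 cells (8.84 ± 0.02), whose arrays overlapped, and lowest in LNCaP GFP cells (8.27 ± 0.26; SD, n = 2 each). JUN on 32583_at was highest in LNCaP GFP cells (4.54 ± 0.14), followed by PC3 GFP (3.56 ± 0.05) and PC3 Notch1 cells (3.54 ± 0.06), whose arrays overlapped, and by LNCaP Notch1 cells (3.40 ± 0.14). JUND on 1612_s_at was at 11.96 ± 0.06 in PC3 Notch1 and 11.93 ± 0.10 in PC3 GFP cells, which overlapped, and lower in LNCaP GFP (11.61 ± 0.14) and LNCaP Notch1 cells (11.09 ± 0.03). On all probe sets of FOSL1 and JUNB both PC3 groups lay above both LNCaP groups. The LNCaP Notch1 effect and the difference between GFP cells share the LNCaP GFP arrays. Side by side, FOSL2 had 0.61 with Notch1 in LNCaP and -0.87 between the GFP cells, and JUN on 32583_at had -1.14 and 0.98.

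For each gene with a called Notch1 effect, the genes nearest in pattern were found by the root mean square difference of centred log2 values over the 8 arrays, a measure of likeness on these arrays alone. Nearest to FOSL2 were GNLY (0.0873) and ROM1 (0.0925), nearest to JUN on 1895_at were ARIH2 (0.0874) and LSS (0.124), and nearest to JUND on 1612_s_at were GORASP2 (0.0553) and TSPO (0.0719).

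The genes around AP-1 and EGR were described with 5 lists, which share some genes, so the list counts are not separate. Each gene was read by its brightest probe set. At this level 8.47% of 8226 genes were called higher and 10.2% lower with Notch1 in LNCaP cells, and 4.36% higher and 2.21% lower in PC3 cells. Among 20 measured of 28 listed bZIP factors, the ATF, MAF, NRF and C/EBP proteins that pair with AP-1 subunits or share their sites, 3 were called higher and 9 lower in LNCaP cells, with a median difference of -0.46 beside 0.04 over all genes. In PC3 cells 2 were higher and 0 lower (12 of the 20 had an unadjusted p under 0.05 in either direction), with a median of 0.28 beside -0.07 over all genes. CEBPB, the C/EBP family member of inflammation and adipogenesis, had mean levels of 8.65 in LNCaP Notch1 and 9.77 in LNCaP GFP cells (log2 difference -1.13), and 10.7 in PC3 Notch1 and 9.83 in PC3 GFP cells (0.85). DDIT3, or CHOP, a bZIP factor of endoplasmic reticulum stress, fell in LNCaP cells by 1.18 and differed by 0.63 in PC3 cells (adjusted p = 0.0540). MAF, a large Maf factor, fell by 1.20 in LNCaP cells, where its mean was 3.99 in Notch1 and 5.19 in GFP cells, and differed by 0.23 in PC3 cells. With low values raised to log2 5 the MAF difference in LNCaP was -0.21 (adjusted p = 0.520).

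Of 38 other immediate early genes measured of 40 listed, 4 were higher and 10 lower in LNCaP cells (median 0.00), and 9 higher and 3 lower in PC3 cells (median 0.05). CCN1, a matricellular protein of the early serum response, rose in both lines, by 2.91 in LNCaP and 3.39 in PC3 cells. SIK1, a cyclic AMP-induced kinase, fell by 2.36 in LNCaP cells and differed by -0.03 in PC3 cells, while PLK2, a Polo-like kinase, rose by 2.83 in PC3 cells and differed by 0.56 in LNCaP cells (adjusted p = 0.0889). PLK2 was weak in PC3 cells, with means of 5.16 in Notch1 and 2.33 in GFP cells, and with low values raised to log2 5 its difference there was 0.22 (adjusted p = 0.677). The MAP kinase and SRF pathway that drives the immediate early genes had 4 higher and 5 lower of 29 measured of 37 listed in LNCaP cells, and by limma 0 called of 29 in PC3 cells, where 5 had an unadjusted p under 0.05. Its genes with the widest called differences in LNCaP cells were MAP3K8, a MAP kinase kinase kinase, at 1.25, RPS6KA3, the kinase RSK2, at 0.71, and ELK4, an SRF partner, at -0.68, and their differences in PC3 cells were 0.21, 0.10 and 0.18. MAP3K8 and ELK4, like the JUN probe sets, had weak signal, and raising low values to log2 5 ended both calls and that of RPS6KA3 (adjusted p = 0.0863). Without LNCaP Notch1 replicate 1 the adjusted p in LNCaP was 0.0978 for RPS6KA3 and 0.0501 for ELK4.

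Genes known as AP-1 targets gave 2 higher and 2 lower of 24 measured of 26 listed in LNCaP cells (median 0.11), and 5 higher and 3 lower in PC3 cells (median -0.04). The textbook AP-1 targets of inflammation and invasion moved in both directions in PC3 cells: CXCL8, the chemokine interleukin-8, rose by 3.40, with mean levels of 10.8 in PC3 Notch1 and 7.35 in PC3 GFP cells, while the collagenases MMP1 and MMP13 fell by 2.87 and 1.90. In LNCaP cells their differences were 0.15, 0.14 and 0.32, with an adjusted p of 0.532, 0.616 and 0.204. MMP1 and MMP13, whose calls ended with low values raised to log2 5, had means of 2.24 and 2.02 in PC3 Notch1 and 5.11 and 3.92 in PC3 GFP cells. The regulators and targets of EGR1 gave 2 higher and 2 lower of 16 measured of 18 listed in LNCaP cells (median -0.04), and 1 higher and 2 lower in PC3 cells (median -0.17). NAB1, a corepressor that binds EGR1, rose by 2.0 in LNCaP and by 0.83 in PC3 cells, where its adjusted p was 0.0630 and 0.114 without PC3 Notch1 replicate 1 or 2, 0.0698 without PC3 GFP replicate 1 and 0.0924 with low values raised to log2 5. FN1, or fibronectin, rose by 1.85 in LNCaP cells and differed by 0.04 in PC3 cells, and GDF15, a stress-induced cytokine, fell by 0.93 in LNCaP and by 1.48 in PC3 cells.

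**Figure D4:**
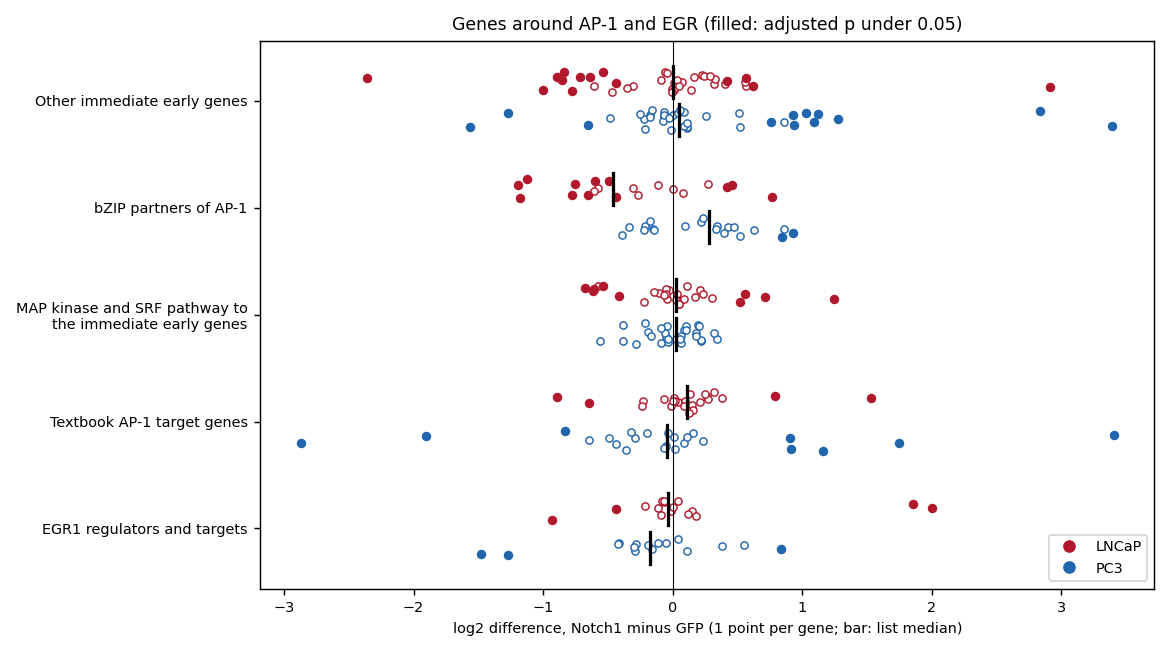
Log2 difference between Notch1 and GFP cells (x axis) of each measured gene in 5 lists around AP-1 and EGR (y axis), in LNCaP (red) and PC3 (blue), filled where the adjusted p is under 0.05, with a bar at each list median. The bZIP factors have a median of -0.46 in LNCaP and 0.28 in PC3 cells, and the outermost points are CCN1, SIK1, PLK2, CXCL8 and MMP1.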

How the data were processed

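Total RNA of the 8 samples was hybridized by the authors to Affymetrix U95Av2 arrays, and the values were made with RMA, per the labels, which also name limma. RMA corrects background, brings arrays processed together to 1 distribution and summarises probes, and compresses differences between weak signals. The deposited values of the lines were not on 1 distribution, with array medians of 6.28 to 6.36 in LNCaP and 5.95 to 6.01 in PC3 cells. Not given in the sources used here are tool versions and whether both lines were normalized together. The authors deposited 1 log2 value per probe set and array, and these log2 values were used unchanged. Of 12625 probe sets, 67 Affymetrix controls were left out. The platform annotation gave 10943 of the 12558 tested 1 symbol, 545 several and 1070 none. Samples were grouped by their labels. Group means were fitted to all 8 arrays with limma 3.58.1 (R 4.3.3, lmFit and eBayes, 4 residual and 6.368 prior degrees of freedom), two-sided, with Benjamini-Hochberg adjustment over all tested probe sets. The code was tested on simulated data. The array number limits the precision.

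Every probe set of the members is reported. From each list up to 3 called genes with the widest change in either line are named, and for each member with a call the 2 nearest genes in pattern. The members and lists were chosen with earlier results of these data known. NOTCH1 and HEY1 were not analysed here. Alternatives were median centring, quantile normalization, a floor at log2 5, a filter at the 25th percentile, a fit on only the arrays compared, the replicate number as a block, eBayes with trend and robust settings, and each array left out. Promoter sequences were taken from RefSeq (GRCh38.p14), where 8 of the 9 members had an entry.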

Additional observations from a re-analysis of the deposited data

Results flagged for a closer look

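Of the genes named above, the following Notch1 effects differed between LNCaP and PC3 cells by the interaction in limma, given as the LNCaP effect minus the PC3 effect on the log2 scale. With 2 arrays in each group, single arrays were not screened as outliers. Among the AP-1 and EGR probe sets these were FOSL2 (0.91, adjusted p = 0.0116), JUN on 1895_at (-0.79, adjusted p = 0.0345) and JUN on 32583_at (-1.12, adjusted p = 0.00248).

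The genes named from the lists were chosen for their change in a line, so they are not all that differed. Over all probe sets 6.49% had an interaction called higher and 7.67% lower, and the share over all genes was not computed. Beside this, in lists that share some genes, interactions were called higher and lower for 0 and 9 of 20 bZIP factors. For other immediate early genes they were 5 and 15 of 38, and for the MAP kinase and SRF pathway 2 and 4 of 29. For AP-1 targets they were 5 and 5 of 24, and for EGR1 regulators and targets 3 and 0 of 16. Of the named bZIP factors they were MAF (-1.43), DDIT3 (-1.81) and CEBPB (-1.97), the last with a called change in each line. Of the other immediate early genes named they were PLK2 (-2.27) and SIK1 (-2.33). Of those named in the MAP kinase and SRF pathway they were MAP3K8 (1.04) and ELK4 (-0.86). Of the AP-1 targets named they were CXCL8 (-3.26), MMP1 (3.0) and MMP13 (2.22), and of the EGR1 regulators and targets NAB1 (1.16) and FN1 (1.81). The genes nearest in pattern to FOSL2 and JUN were GNLY (0.61), ROM1 (0.76), ARIH2 (-0.74) and LSS (-0.58), which were picked for their likeness to those genes and so add no further evidence. Leaving out 1 array ended the call for MAP3K8 (adjusted p = 0.0670 without LNCaP Notch1 replicate 2 and 0.0613 without PC3 Notch1 replicate 2), for ELK4 (0.0514 without LNCaP Notch1 replicate 1 and 0.0605 without PC3 Notch1 replicate 1), and for GNLY, ROM1, ARIH2 and LSS in 6, 5, 4 and 8 of the 8 such fits. With low values raised to log2 5 the interaction lost its call for FOSL2 (adjusted p = 0.0627), ROM1 (0.0715), MAF (0.662), MMP1 (0.236), MAP3K8 (0.662) and NAB1 (0.618), and for JUN on both probe sets, MMP13 and ELK4 it became 0. That of PLK2 turned to 0.34 (0.488).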

How the results depend on the processing

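The replicate number is shared by the groups, but no source says what it marks. Deviations of same-numbered arrays correlated at 0.124 to 0.545 over 6 pairs of groups, with only 2 numbers. With it as a replicate block, 2 AP-1 and EGR probe sets were called lower in PC3 cells, FOS on 2094_s_at (adjusted p = 0.0378) and JUNB on 2049_s_at (0.0444), against 0 without it, and 4 interactions were called lower, those of JUND on 1612_s_at (0.0289) and 41483_s_at (0.0300) being gained, against 2. No other count moved by over 1.5 times. A floor at log2 5 left 0 higher and 1 lower calls in LNCaP cells (1 and 4 without it), 0 and 0 interactions (1 and 2) and 0 probe sets higher in LNCaP GFP than in PC3 GFP cells (4). It sets all JUN values equal by its construction. The PLK2 interaction turned to 0.34 under it (adjusted p = 0.488). The 25th percentile filter, which removes JUN, left 2 lower calls in LNCaP cells, 1 lower interaction and 1 probe set higher in LNCaP GFP cells, and gave 1 lower call in PC3 cells. Trend and robust eBayes gave 1 lower call in PC3 cells and 4 lower interactions. Median centring gave 4 lower interactions and 2 probe sets higher in LNCaP GFP cells. Quantile normalization gave 2 higher interactions and 1 probe set higher in LNCaP GFP cells. The cause was not tested.

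Leaving out each array gave 0 to 1 higher and 1 to 4 lower calls in LNCaP cells, 0 higher and 0 to 2 lower in PC3 cells, 0 to 2 higher and 1 to 3 lower interactions, and 2 to 4 probe sets higher in LNCaP GFP cells. The 6 lower calls between GFP cells stayed within 1.5 times in every setting. Fits on only the arrays compared moved no count by that much. RMA values hold no background measure, so the weak JUN and FOS signals are limited by their dimness.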
